A study of Mus musculus with 12 samples.

Results

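The genes described here are those that were far lower in Cherry+ than in Cherry- lung cells at both days of the study. They were taken by a rule on the deposited log2 values, with the mean of the 3 libraries in each group. The rule asked for a Cherry+ mean at least 2.75 log2 units (6.73-fold) under the Cherry- mean at day 5 and again at day 10. It further asked that every Cherry+ library lay below every Cherry- library at each day, and that the highest of the 4 group means was at least 7. It found 182 of 32958 genes, where a gene is 1 identifier of the deposited table.

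The cells came from lungs of female Balb/c mice, aged 6-10 weeks, that had received 4T1 cells of a labelling line by vein. 4T1 is a mouse mammary carcinoma line that settles in the lung. Cells without CD45, a leukocyte marker, and without Ter119, a red cell marker, were sorted 5 or 10 days later, and the 4 groups of 3 libraries are Cherry- and Cherry+ cells at each day. All mice had received tumour cells, and a group of mice without them is not analysed here. Not stated in the labels are what the Cherry signal marks, whether a library is 1 mouse or a pool, or whether the tumour cells themselves were kept out of the sort.

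As background, a labelling tumour line of this kind releases a red fluorescent protein that can enter neighbouring host cells, so that labelled cells mark the surroundings of the tumour cells, the metastatic niche. The lung cells that remain after leukocytes and red cells are removed are mainly endothelial cells, alveolar and airway epithelial cells, fibroblasts, pericytes and smooth muscle, each with its own abundant transcripts. In bulk libraries, fewer cells of one type and less RNA per cell cannot be told apart.

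None of the identifiers matched a gene name table used here (0 matches). The genes therefore have no symbol and no stated function below, the cell types behind them were not tested, and no sequence is shown. Only 4 identifiers are printed, and other genes are called by their rank in the set, where rank 1 has the largest fall averaged over both days. Ranks other than 1 and 2 were picked after their values were seen.

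Few of the genes that fell this far at day 5 failed to do so at day 10. Of the 200 genes past the fall and the level at day 5, 182 (91.0%) are in the set, against 43.6% of the 417 genes past them at day 10. The limit that decided membership was thus mostly that of day 5. The same rule turned round, for genes at least 2.75 log2 units higher in Cherry+ cells at both days, found 17 genes. Among the genes at the edge of the rule, the 3 just inside had day 5 falls of -2.751, -2.752 and -2.752, and the 3 just outside had -2.749, -2.745 and -2.743. All 6 fell by 3.93 to 4.27 log2 units at day 10. At the edge of the level, the highest group mean was 7.01 and 7.02 in the 2 genes just inside and 6.96 and 6.92 in the 2 just outside. In all, 20 genes met the other conditions and missed the level.

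**Figure D1:**
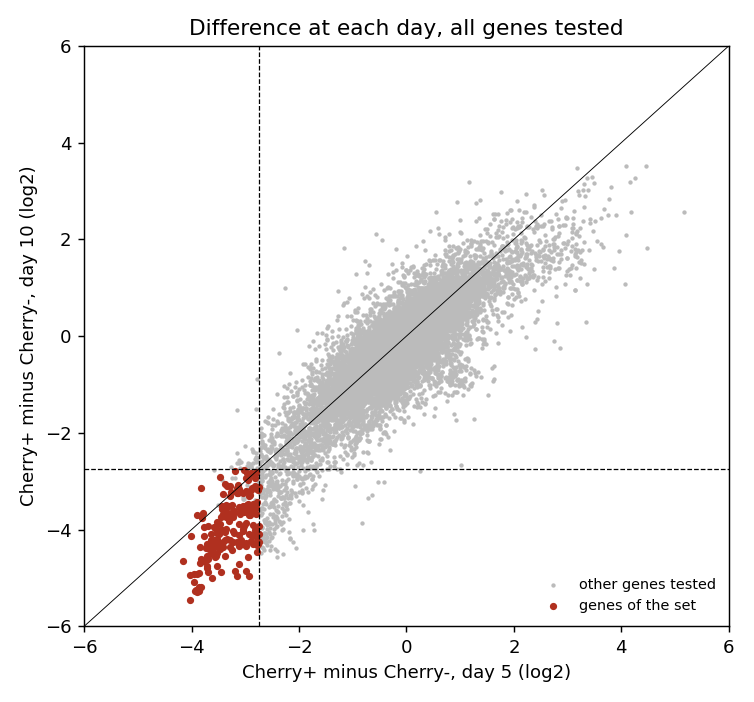
Difference between Cherry+ and Cherry- cells in log2 units, at day 5 on the x axis and at day 10 on the y axis, for the 15842 genes tested, with the 182 genes of the set in red, dashed lines at the fall asked for and a solid line of equal differences. Most of the set (165 of 182) lies below the line of equal differences, and the grey points inside the dashed corner missed the level.

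The falls themselves chose the genes, so they are given as a description without a test. At day 5 they lay between -4.17 and -2.75 with a median of -3.23, or 9.40-fold. At day 10 they lay between -5.47 and -2.77 with a median of -3.99, or 15.9-fold. Over all 15842 genes that passed the filter on low values, the medians were -0.04 and -0.05. The background share of genes with no overlap between the 3 Cherry+ and the 3 Cherry- libraries, in the direction of lower values in Cherry+ cells, was 25.5% at day 5 and 28.1% at day 10. All 182 genes passed that filter. The median gap between the lowest Cherry- and the highest Cherry+ library was 2.76 log2 units at day 5 and 3.22 at day 10, and the smallest gaps were 1.21 and 1.49. With both days pooled, 179 of the 182 genes had all 6 Cherry- libraries above all 6 Cherry+ libraries, as 15.7% of all genes tested did. The rule already fixed the separation within each day, so nothing is read from this count.

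**Figure D2:**
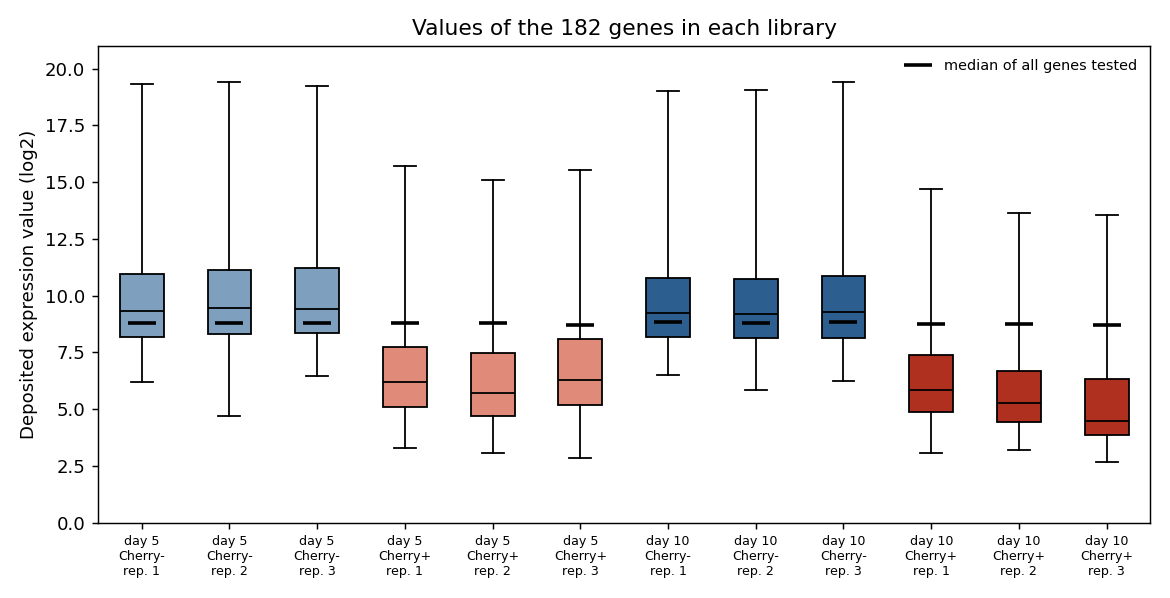
Deposited log2 values of the 182 genes in each of the 12 libraries, with the box from the first to the third quartile, the thin line at the median, whiskers from the lowest to the highest gene and a thick bar at the median of all genes tested. The median of the set lies above the thick bar in the 6 Cherry- libraries and below it in the 6 Cherry+ libraries.

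In Cherry- cells the set covered a wide range of values, from 6.61 to 19.24 as a mean of the 6 libraries, with a median of 9.36. These values are not known to be corrected for gene length, so they rank signal and not molecules. The median of the set over Cherry- libraries 1 to 3 was 9.31, 9.47 and 9.42 at day 5 and 9.24, 9.19 and 9.28 at day 10. Over Cherry+ libraries it was 6.20, 5.72 and 6.29 at day 5 and 5.83, 5.27 and 4.49 at day 10. The Cherry- libraries were thus alike, while the Cherry+ libraries differed among themselves and replicate 1 at day 10 lay above replicate 2 at day 5.

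At day 5 the gene at rank 1, uc008qvv.1, had 13.12, 13.55 and 13.40 in Cherry- libraries and 9.42, 8.92 and 9.66 in Cherry+ libraries. At day 10 it had 12.93, 12.76 and 13.47 in Cherry- and 8.05, 7.24 and 7.48 in Cherry+ libraries. All Cherry- values exceeded all Cherry+ values, and the 3 lowest values were those of day 10 Cherry+ cells. Its falls were -4.03 ± 0.26 (SE) at day 5 and -5.47 ± 0.26 (SE) at day 10.

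At rank 2, uc007fun.2 had a much lower signal and nearly the same falls. At day 5 it had 8.90, 9.11 and 8.87 in Cherry- and 4.94, 4.56 and 5.59 in Cherry+ libraries. At day 10 it had 8.97, 8.98 and 9.03 in Cherry- and 3.84, 3.56 and 3.74 in Cherry+ libraries. The Cherry- libraries spread by little (SD 0.13 and 0.03, n = 3 each), and the groups did not overlap. The falls were -3.93 ± 0.24 (SE) and -5.28 ± 0.24 (SE).

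The closeness of these falls held over the head of the ranking. Among the genes at ranks 1 to 10, day 5 falls lay between -4.04 and -3.82 and day 10 falls between -5.47 and -4.92, while their mean values in Cherry- cells ran from 8.98 to 19.24. The SD over the 10 genes was 0.07 at day 5 and 0.16 at day 10, less than the median standard error of a fall in the set (0.30). Ranking by the fall itself brings genes of like falls together, so this is a description. A fall of at least 5 log2 units at day 10 was seen in 8 genes, ranks 1 to 8, and their day 5 falls all lay between -4.03 and -3.82. At the tail, the gene at rank 182 fell by 2.80 and 2.81.

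The gene at rank 6 had the highest value of the table in every Cherry- library, 19.31, 19.42 and 19.21 at day 5 and 19.03, 19.07 and 19.39 at day 10. In Cherry+ cells it had 15.73, 15.09 and 15.53 at day 5 and 14.70, 13.66 and 13.55 at day 10. The falls of the rank 6 gene were -3.87 and -5.20. In each of the 6 Cherry+ libraries the highest value belonged to a gene outside the set.

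When the values were taken back to the linear scale and summed, the 182 genes held 7.59% ± 0.39 of the total of a Cherry- library at day 5 and 7.05% ± 0.33 at day 10 (SD, n = 3 each). The Cherry+ libraries held 0.623% ± 0.121 at day 5 and 0.294% ± 0.109 at day 10 (SD, n = 3 each). The rank 6 gene alone held 3.10% of Cherry- and 0.210% of Cherry+ libraries at day 5, and 2.81% and 0.0846% at day 10. All other members together held 4.49% and 0.414% at day 5, and 4.24% and 0.210% at day 10. These are shares of linear signal, which need not be shares of molecules. Of the 100 genes with the highest values in a library, 9 to 13 were members in Cherry- libraries and 0 or 1 in Cherry+ libraries.

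**Figure D3:**
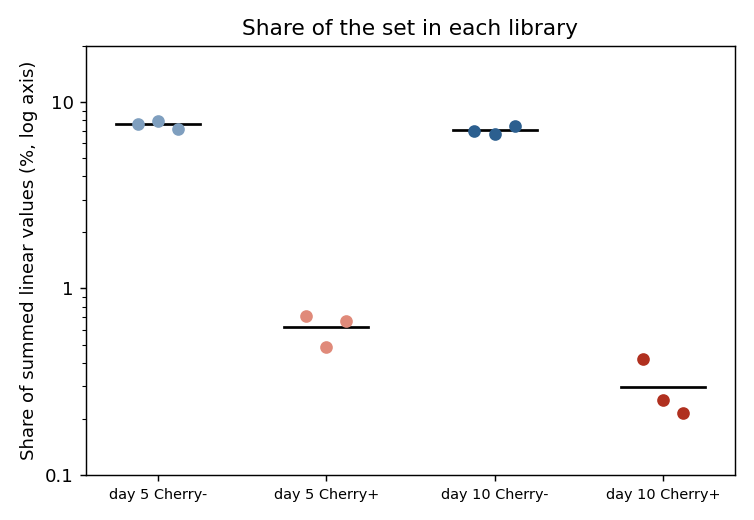
Share of the summed linear values held by the 182 genes, in percent on a log axis, with 1 point per library and a bar at the mean of each group. The 6 Cherry- libraries lie between 6.73% and 7.95%, whereas Cherry+ libraries reach from 0.214% to 0.715%.

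The set was also divided by its mean level in Cherry- cells. In the 41 genes with a mean under 8 the median fall was -3.13 at day 5 and -3.48 at day 10. In the 39 genes from 8 to 9 it was -3.30 and -3.73, in the 33 genes from 9 to 10 it was -3.46 and -4.21, and in the 38 genes from 10 to 12 it was -3.13 and -4.23. In the 31 genes at 12 or more it was -3.42 and -4.35. These falls chose the genes, and the limit cut the day 5 falls more tightly than those of day 10, so the days are not compared by level.

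Over the 182 genes the fall at day 5 and the fall at day 10, which share no library, had a Pearson correlation of 0.55 and a Spearman correlation of 0.51. These are values across genes, which are not independent replicates, and the rule bounds both axes.

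**Figure D4:**
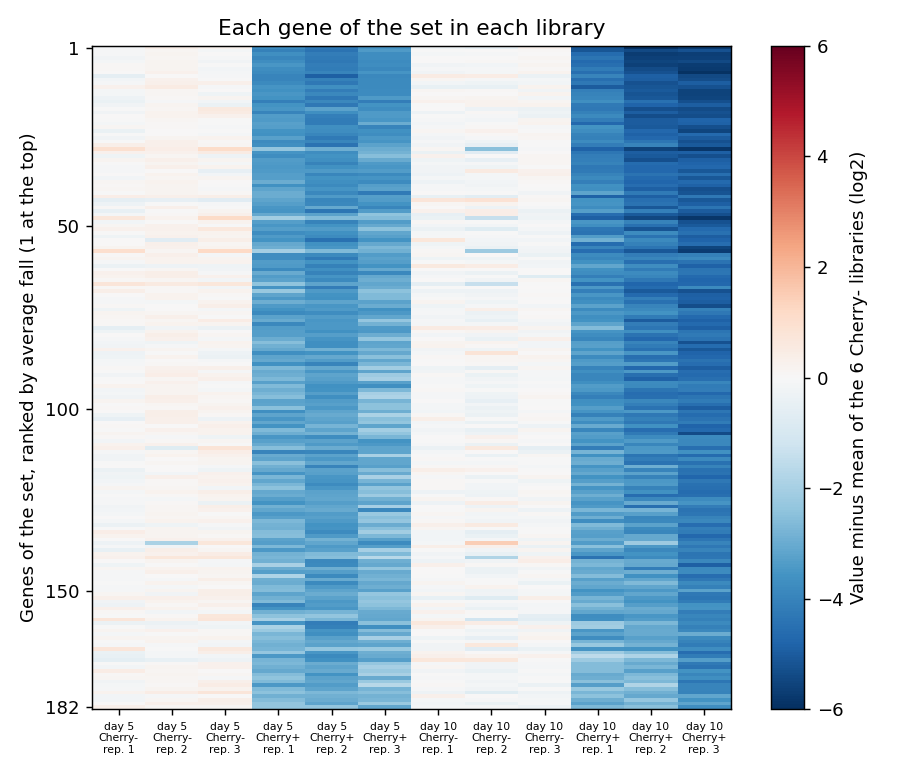
Each of the 182 genes (rows, ranked by average fall) in each of the 12 libraries (columns), as the log2 value minus the gene's mean over the 6 Cherry- libraries, with blue below and red above that mean. Cherry+ columns are blue throughout, day 10 Cherry+ replicates 2 and 3 are the darkest, and a few rows are blue in day 10 Cherry- replicate 2.

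The genes moved together across the libraries. After each gene was centred on its mean, the first principal component of the set held 96.5% of its variance and the second 1.47%. A high share on the first component follows from the rule, which asks for 1 large step in all of its genes. Within Cherry+ cells of day 5, replicate 2 had the lowest value in 126 of 182 genes, where it was the lowest in 31.3% of all genes tested, and replicate 3 had the highest in 102, against 45.2%. Within those of day 10, replicate 3 had the lowest value in 144, against 41.6% of all genes, and replicate 1 the highest in 148, against 36.3%. In the median of the set, day 10 Cherry+ replicate 3 lay 0.74 log2 units below the mean of its partners (-0.74), and replicate 1 lay 0.78 above. Genes of like low level were not compared separately. The median SD of a gene of the set in Cherry+ cells was 0.40 at day 5 and 0.57 at day 10, against 0.26 and 0.25 over all genes tested (n = 3). In Cherry- cells it was 0.16 and 0.17, against 0.18 and 0.16.

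As to the libraries as a whole, day 5 Cherry- replicate 1, day 5 Cherry+ replicate 3 and day 10 Cherry+ replicate 3 lay farthest from their partners, with a root mean square difference, averaged over the 2 partners, of 0.76, 0.63 and 0.74 log2 units where the other libraries had 0.36 to 0.62. No pair of libraries was identical. Read counts were not used here, so depth is unknown.

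Changes between the days within one kind of cell were not used by the rule and were tested with limma, with p-values adjusted over all 15842 genes by the Benjamini-Hochberg method. They are not wholly independent of it, since the rule's libraries enter them. Separate animals are not named for the libraries of a group, so the p-values speak only of the spread over the sequenced libraries.

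In Cherry- cells the values of most of the set changed little from day 5 to day 10. The median change was -0.15 log2 units, against -0.0049 over all genes, and 162 of 182 genes changed by under 0.5 in either direction. Of the changes, 128 were below 0 (70.3%, against 50.8% of all genes). No gene of the set was called at an adjusted p under 0.05 (0 of 182 in limma, where 0% of all genes were called lower and 0.366% higher). At an unadjusted p under 0.05 there were 14 lower and 2 higher, where 1.79% of all genes were lower and 5.85% higher. With library quality weights in limma 14 were called, 11 lower and 3 higher (7.69% of the set), where 9.80% of all genes were called, 2.71% lower and 7.09% higher. In a fit of the Cherry- libraries alone 4 were called, 2 in each direction (2.20%), where 2.03% of all genes were, 0.107% lower and 1.92% higher. The 3 day 10 libraries lay below the 3 day 5 libraries in 43 genes (23.6%, background 8.85%) and above them in 9 (4.95%). Over all genes, 20.8% were separated in one direction or the other.

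In Cherry+ cells 52 of the 182 genes were called lower at day 10 than at day 5 in the fit of all 4 groups. Most of the others had lower values without passing the test. That fit shares its estimate of the spread over all groups, whereas the set varied more in Cherry+ cells. The median SD was 0.40 and 0.57 in Cherry+ against 0.16 and 0.17 in Cherry- cells at day 5 and day 10. Standard errors may thus be too small for Cherry+ changes and too large for Cherry- changes. The median change over the set was -0.81 log2 units, or 1.76-fold, against -0.02 over all genes, and 170 of 182 changes were below 0 (93.4%, against 51.9% of all genes). In limma 52 genes were called lower (28.6% of the set) and 0 higher, where the background was 3.04% lower and 1.35% higher. At an unadjusted p under 0.05 there were 107 lower (58.8%, background 12.7%) and 0 higher (background 8.24%). All 3 day 10 libraries lay below all 3 day 5 libraries in 79 genes (43.4%, background 12.1%) and above them in 0 (background 9.25%). Since the Cherry- changes were mostly small, the Cherry+ change lies close to the difference of the falls that chose the genes. These shares are therefore a description, and nothing is read from them.

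The count of 52 rested on single libraries and on how the spread was estimated. Without Cherry+ replicate 1 of day 5 it was 20 (11% of the set, against 1.31% of all genes called in that fit), and without replicate 3 of day 5 it was 15 (8.24% against 0.619%). Without Cherry+ replicate 2 of day 5 it was 49 (26.9% against 2.93%). With 1 Cherry- library left out, which does not enter this change, it was 35 (19.2% against 2.02%) to 43 (23.6% against 3.06%). For the day 10 Cherry+ libraries, it was 96 without replicate 1 (52.7% against 10.4%) and 28, of them 27 lower and 1 higher, without replicate 3 (15.4% against 2.49%). Without replicate 2 of day 10 no gene was called, in the set (0) or in the whole table (0). A fit of the 6 Cherry+ libraries alone and a fit with library quality weights each called 0 genes in the set and 0 in the table. A fit to genes of any level called 31 (17.0% against 1.10%). The median change was below 0 in each of these fits, within -1.07 to -0.44 log2 units over all alternatives run. It cannot move from -0.81 where the Cherry+ group means are unchanged, as with a Cherry- library left out, Cherry+ libraries alone or genes of any level. Those fits therefore say nothing of its steadiness.

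The 52 genes had the higher signal within the set. At day 5 their median level was 10.95 without and 7.62 with Cherry, and at day 10 it was 10.66 and 6.23. The other 130 genes had 8.87 and 5.57 at day 5, and 8.70 and 4.88 at day 10. Their changes lay between -2.96 and -0.89 with a median of -1.45, and 23 of them were among ranks 1 to 50. The 130 genes had a median change of -0.60. By level class, the median change in Cherry+ cells was -0.36 in genes under 8, -0.74 from 8 to 9 and -0.94 from 9 to 10. It was -0.96 from 10 to 12 and -1.28 at 12 or more. In day 10 Cherry+ replicates 1 to 3, 3, 4 and 18 members lay below 10 on the linear scale. Whether values near the floor, or a shrinking transform, limit the changes of genes with less signal was not tested. The order of the classes is therefore a description.

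For uc008qvv.1 the change in Cherry+ cells was -1.74 ± 0.26 (SE, adjusted p = 0.0159 in limma), and 3 of 3 day 10 libraries were below all day 5 libraries. Its adjusted p was 0.0914 without day 10 Cherry+ replicate 2, 0.0671 with quality weights and 0.198 with Cherry+ libraries alone, within 0.00218 to 0.198 over the alternatives. In Cherry- cells its change of -0.30 did not pass (adjusted p = 0.904 in limma).

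For uc007fun.2 the change in Cherry+ cells was -1.32 ± 0.24 (SE, adjusted p = 0.0215 in limma), again with no overlap between the days. Its adjusted p was 0.104 without day 10 Cherry+ replicate 2, 0.103 with quality weights and 0.207 with Cherry+ libraries alone, within 0.0115 to 0.207 over the alternatives. In Cherry- cells it changed by 0.03 (adjusted p = 0.997 in limma).

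**Figure D5:**
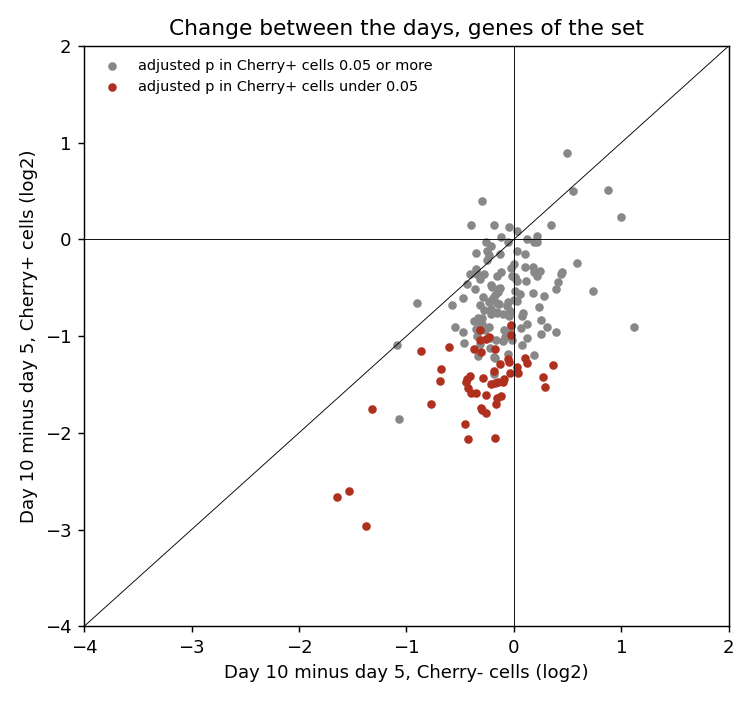
Change from day 5 to day 10 in log2 units, in Cherry- cells on the x axis and in Cherry+ cells on the y axis, with 1 point for each of the 182 genes, the 52 genes called in Cherry+ cells in red and a line of equal changes. The points lie near 0 on the x axis and mostly below 0 on the y axis, and the 6 points left of -1 on the x axis are also below -1 on the y axis.

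Subtracting the Cherry- change from the Cherry+ change gives the day 10 fall minus the day 5 fall. Both falls chose the genes, so this difference is a description and nothing is read from its shares. Its median was -0.67 log2 units, and the fall was larger at day 10 in 165 of 182 genes (90.7%, where 54.9% of all genes had a negative difference). In limma 0 of 182 genes were called (background 0%, smallest adjusted p = 0.192). At an unadjusted p under 0.05 there were 62 lower (34.1%, background 7.20%) and 0 higher (background 2.98%). Without day 10 Cherry+ replicate 1, 24 genes were called (13.2%, against 1.02% of all genes). Because the rule bounds both falls, these counts do not decide whether the falls differ between the days.

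In 17 genes the fall was the larger at day 5. Their median fall was -3.28 at day 5 and -3.09 at day 10, and they lay between ranks 59 and 180. The largest change towards higher values in Cherry+ cells was that of the gene at rank 168, with Cherry+ values of 9.09, 8.70 and 9.49 at day 5 and 10.95, 10.67 and 8.35 at day 10. Its day 10 libraries lay on both sides of those of day 5, with replicate 3 the lowest of the 6, and the change of 0.89 ± 0.52 (SE) did not pass (adjusted p = 0.361 in limma).

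A small group within the set had lower values at day 10 in both kinds of cell. It holds 6 genes, ranks 29, 48, 57, 66, 141 and 158, whose change in Cherry- cells was below -1. They were picked by that change, so the group is described and not tested as a group. The change lay between -1.65 and -1.07. In all 6, day 10 Cherry- replicate 2 was the lowest of its group. In Cherry+ cells the same genes changed by -2.96 to -1.09.

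In Cherry- libraries the gene at rank 29 had 15.96, 15.41 and 16.07 at day 5 and 15.10, 12.48 and 14.91 at day 10. In Cherry+ libraries it had 12.64, 12.07 and 12.03 at day 5 and 10.16, 9.44 and 9.16 at day 10. Day 10 Cherry- replicate 2 thus lay over 2 log2 units under its partners and below day 5 Cherry+ replicate 1. The gene at rank 57 had the same order, with Cherry- values of 11.12, 10.21 and 11.31 at day 5 and 10.16, 7.95 and 9.92 at day 10. Its Cherry+ values were 8.08, 7.46 and 7.23 at day 5 and 5.52, 5.02 and 4.42 at day 10. These genes and that at rank 141 are the 3 of the set whose Cherry- and Cherry+ values overlap when the days are pooled.

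At rank 48 stood the gene with the largest change in Cherry+ cells, from 10.60, 10.11 and 10.08 at day 5 to 7.79, 7.25 and 6.87 at day 10, by -2.96 ± 0.34 (SE, adjusted p = 0.0159 in limma). In Cherry- cells it had 13.40, 12.90 and 13.86 at day 5 and 12.30, 11.30 and 12.43 at day 10. Its Cherry- values did not overlap between the days either, with a change of -1.38 ± 0.34 (SE) that did not pass (adjusted p = 0.132 in limma).

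The genes with the largest change towards higher values in Cherry- cells were uc007svv.3 and uc007xlp.2. The values of uc007svv.3, rank 43, in Cherry- libraries were 11.19, 11.27 and 11.08 at day 5 and 12.46, 12.61 and 11.85 at day 10. In Cherry+ libraries they were 8.57, 7.81 and 8.39 at day 5 and 8.15, 7.24 and 6.65 at day 10. Its Cherry- values were higher at day 10 in 3 of 3 libraries, while its Cherry+ values overlapped between the days. The changes were 1.12 ± 0.34 and -0.91 ± 0.34 (SE), with adjusted p of 0.262 and 0.146 in limma. The Cherry- change passed with quality weights (0.00320) and with Cherry- libraries alone (0.0248), within 0.00320 to 0.904 over the alternatives. Without day 10 Cherry+ replicate 1 the Cherry+ change passed (0.0145).

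The values of uc007xlp.2, rank 137, had the largest SD of the set in Cherry- cells at day 5 (1.31, n = 3). In Cherry- libraries they were 6.32, 4.71 and 7.31 at day 5 and 6.50, 8.08 and 6.76 at day 10. Its Cherry+ values were 3.29, 3.50 and 2.86 at day 5 and 3.25, 4.43 and 2.67 at day 10. Replicate 2 was the lowest Cherry- library at day 5 and the highest at day 10. Its Cherry- change of 1.00 ± 0.65 (SE) did not pass (adjusted p = 0.833 in limma), and it was 0.29 without day 5 Cherry- replicate 2.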

How the data were processed

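RNA of sorted CD45-Ter119- lung cells was amplified and sequenced, per the labels' protocols. The authors deposited 1 table of log2 expression values for 32958 identifiers in 12 libraries. Per the submitters' processing notes, mm10 and the tools Bowtie2, RSEM 1.2.29 and DESeq2 1.12.4 were used, with no role or order. How the values were transformed is not stated. The deposited log2 values run from -2.21 to 19.42, and 7764 identifiers are at 0 in every library. If the transform shrinks low values, differences of genes with few reads are understated, which was not tested. Depth is unknown, so no counting interval was computed.

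Columns were matched to samples by the source names, and groups come from the titles. The members, the lists and the tests were chosen with earlier results of these data known. Genes were tested where at least 3 of 12 libraries reached 10 on the linear scale (3.32 in log2), which left 15842. limma 3.58.1 in R 4.3.3 was fitted over all 4 groups, two-sided, with trend in its variance prior and 8 residual degrees of freedom. A gene is called at a Benjamini-Hochberg adjusted p under 0.05. Cherry+ against Cherry- was fitted for standard errors and background shares only. Signal shares are sums of 2 to the power of the value. The named identifiers are the 2 members with the largest average fall and the 2 with the largest change towards higher values from day 5 to day 10 in Cherry- cells. Lists of cell type markers could not be tested without gene names. The procedure was tested on simulated data with 1 spread per gene for all groups. The set varied more in Cherry+ than in Cherry- cells, so that test does not speak to its Cherry+ changes. Same-numbered Cherry- and Cherry+ libraries of the same day share a letter in their source names, whose meaning is not given. Their deviations from the group means correlated at 0.25, 0.16 and 0.23 at day 5 and at -0.14, 0.57 and 0.11 at day 10. Alternatives changed the filter, the scaling, the spread model, the replicate block, the libraries and the rule. Figures were drawn with matplotlib 3.10.9.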

Additional observations from a re-analysis of the deposited data

How the results depend on the processing

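The set had 182 genes, 149 to 261 with 1 library left out, and 124 of the 182 stayed in all 12 of those sets. With a fall of 2.5 log2 units it had 298, and the other alternatives kept its size within 1.5 times. A set of like size need not hold the same genes. Of the 182 genes, 168 stayed with median ratio rescaling (a set of 168) and 140 with quantile normalisation (a set of 147). Cyclic loess kept 144 (a set of 173) and group medians kept 161 (a set of 214). Members called in Cherry- cells, 0 with all libraries, numbered 0 to 1 with 1 library left out. It was 1 without day 10 Cherry- replicate 3 (0.549% of the set, against 0.783% of all genes). It was also 1 without day 10 Cherry+ replicate 3 (0.549% against 0.682%). Quality weights gave 14 (7.69% against 9.8%), and a fit of the compared groups alone gave 4 (2.2% against 2.03%). Without the 3 libraries farthest from their groups, a fit chosen after seeing the data, 1 was called (0.549% against 2.72%). Members called in Cherry+ cells, 52, ranged from 0 to 96 with 1 library left out. They numbered 31 over genes of any level (17% of the set, against 1.1% of all genes). Quality weights and a fit of the compared groups alone each gave 0, in the set and over all genes. Without those 3 libraries 39 were called, 37 lower and 2 higher (21.4% against 8.2%). Members called for the difference between the days, 0, numbered 0 to 24 with 1 library left out. The 24 were 13.2% of the set, against 1.02% of all genes. Without those 3 libraries 1 was called, higher (0.549% against 3.81%). By construction, more genes are tested with no filter, and a fit of 2 groups has fewer samples and a spread of those groups only. What caused each shift was not tested.

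With the replicate block, 24 members were called in Cherry+ cells (13.2%, against 1.24% of all genes) and 0 for the other contrasts. Between the days same-numbered libraries correlated at -0.39, -0.19 and -0.44 in Cherry+ and -0.16, -0.58 and 0.37 in Cherry- cells, so the numbers do not pair them. At day 10 the correlations were -0.14, 0.57 and 0.11. A block within each day, added after seeing the data, gave 0 members for the difference between the days, and 6173 genes at day 5 and 6199 at day 10 for all genes, against 6070 and 6160. Of the values of the 4 named genes, 226 kept direction and side of the threshold, 6 lost and 5 gained the call, and 3 changed direction without being called. These were uc007fun.2 in Cherry- cells (-0.012 without day 5 Cherry- replicate 3, in a range of -0.012 to 0.11, and -0.035 with quality weights) and uc007xlp.2 in Cherry+ cells (-0.25 without day 10 Cherry+ replicate 2, in a range of -0.25 to 0.63).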
